A study of Mus musculus with 14 samples.

Results

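Distal intergenic fusion regions were stretches of the mouse genome, outside annotated genes and their surroundings by the deposited annotation, to which sequence from the Hao1 target was found joined. They were chosen as every row of the authors' 3 tables of all fusion regions that had a chromosome and whose deposited annotation began with Distal Intergenic. The target stretch (chr2:134400000-134700000) and the chr8 stretch (chr8:123400000-123500000) were left out. This gave 324 of 730 regions, with 28 of 66 after SaCas9g1, 217 of 496 after SaCas9g2 and 79 of 168 after SaCas9g1+g2. For comparison, 393 regions lay elsewhere outside the left-out stretches, 265 of them in introns and 128 in promoters, exons or untranslated regions.

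The cells were MEF CF-1, mouse embryonic fibroblasts, and SaCas9 is the nuclease of Staphylococcus aureus. SaCas9g1 cells were nucleofected with 3 µg of SaCas9 loaded with 72 pmol of guide g1, SaCas9g2 cells with g2 and SaCas9g1+g2 cells with both, and genomic DNA was taken on day 6. The counts came from 2 SaCas9g1 libraries (g1-B-MEF, Hao1-g1B), 4 SaCas9g2 libraries (g2-A-MEF, g2-B-MEF, Hao1-g2A, Hao1-g2B) and 4 SaCas9g1+g2 libraries (g1-2-A-MEF, g1-2-B-MEF, g1-2-old-MEF, Hao1-g1-2B), and values per library are given in this order throughout. The study's figure legend counts some libraries as technical replicates of one culture, and for each treatment its counts match the letters A and B and the word old in the library names. By these, there were 1 SaCas9g1 letter (B), 2 SaCas9g2 letters (A and B) and 3 SaCas9g1+g2 letters (A, B and old), with both libraries of a letter probably from one culture. Every SD and p over libraries therefore holds technical spread, and tests between treatments are also given with the libraries of a letter averaged. The first PCR annealed at 63 °C for SaCas9g2 and at 61 °C for both other treatments, so guide and PCR setting cannot be told apart in comparisons with SaCas9g2.

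CAST-Seq amplifies from a bait primer beside a nuclease cut and reads the sequence that became joined to it, which can lie next to the cut, elsewhere on the chromosome or on another chromosome. Mouse chromosomes end in telomeres, long arrays of the unit TTAGGG that protect the end, and short arrays of the same unit, called interstitial telomeric repeats, lie inside chromosomes. Satellites are long tandem arrays around centromeres, and ribosomal genes form tandem arrays that produce ribosomal RNA.

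Because the guide alignment of each region was judged against them, the on-target sites of both guides in Hao1, the gene of glycolate oxidase, are printed first (GRCm38, mm10; chr2:134548261-134548287 on the plus strand for g1 and chr2:134548206-134548232 on the minus strand for g2). Capitals mark the PAM, the short sequence beside the guide match that SaCas9 needs.
on-target site of guide g1: tccgtggatagagcttccatcTGGAAT
on-target site of guide g2: gtcaacttctgttttaggacaGAGAGT

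Windows from 4 intergenic regions show kinds of region described here, on the plus strand of GRCm38. They are the recurrent tandem region of chromosome 4 near Mup7 (chr4:60081698-60081837), the region of chromosome 11 near Mir21a found in all 3 treatments (chr11:86572346-86572465), the region with the most reads after SaCas9g1+g2 (chr10:100659486-100659605) and the satellite region of chromosome 9 (chr9:3010498-3010617). Capitals in the first mark its tandem stretch of the unit GCAGAG.
chr4 tandem: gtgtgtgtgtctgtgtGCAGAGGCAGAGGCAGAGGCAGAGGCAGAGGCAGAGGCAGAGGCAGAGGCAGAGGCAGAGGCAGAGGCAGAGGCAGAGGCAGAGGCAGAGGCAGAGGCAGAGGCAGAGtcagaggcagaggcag
chr11 shared: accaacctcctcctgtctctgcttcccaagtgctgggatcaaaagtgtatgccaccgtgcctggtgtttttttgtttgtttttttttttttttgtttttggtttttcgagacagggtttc
chr10 most reads: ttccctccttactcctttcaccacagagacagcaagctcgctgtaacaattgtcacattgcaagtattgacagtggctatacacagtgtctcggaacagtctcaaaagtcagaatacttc
chr9 satellite: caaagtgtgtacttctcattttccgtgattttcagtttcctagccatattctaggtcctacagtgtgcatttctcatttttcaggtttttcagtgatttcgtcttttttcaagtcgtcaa

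A library held between 459219 and 1716787 reads over all regions, and its on-target hits numbered between 295 and 2030, so ratios are less precise in the smaller libraries. A hit is counted as a distinct fusion, while the reads of a region also carry PCR amplification. Many hits can lie within few bases, as in the region near Mir21a after SaCas9g1+g2, 502 bases wide with 21 hits. Whether each hit was a separate event was not tested. Hits of a region are the authors' sum over the libraries of a treatment, and hits per library are given where a region was among the authors' called sites. The library g1-2-A-MEF stood apart, with 295 on-target hits and reads in 17 intergenic regions against 28 to 38 in the other SaCas9g1+g2 libraries. It enters every SaCas9g1+g2 value below, and counts of 0 in it say less than elsewhere. The tables list only regions above untreated cells in at least 1 library by the deposited p-values, and the untreated counts were not analysed here. A region missing from a table is therefore not a region at 0.

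Most intergenic regions had few hits, and the reads behind them differed widely. The median region had 3.5 hits after SaCas9g1 (2 to 16), 3 after SaCas9g2 (2 to 53) and 3 after SaCas9g1+g2 (2 to 56). Medians over the regions elsewhere were 2, 3 and 4 hits. By reads, the median was 82 after SaCas9g1 (13 to 6854), 3000 after SaCas9g2 (8 to 22851) and 3347 after SaCas9g1+g2 (25 to 19636), beside 920, 3854 and 4895 for regions elsewhere. The intergenic median was thus the lower by reads in each treatment. Without the regions that hold a telomeric array, described below, the intergenic medians were 2117, 3181 and 3562.5 reads. The SaCas9g1 median was then the higher and both others stayed the lower. Reads per hit had a median of 28 after SaCas9g1, 728 after SaCas9g2 and 971 after SaCas9g1+g2. Widths hardly varied, from 500 bases with a median of 503, and the widest reached 1212 bases after SaCas9g1, 2195 after SaCas9g2 and 712 after SaCas9g1+g2. Regions of one library share their source and are not replicates, so these values are described and not tested.

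**Figure D1:**
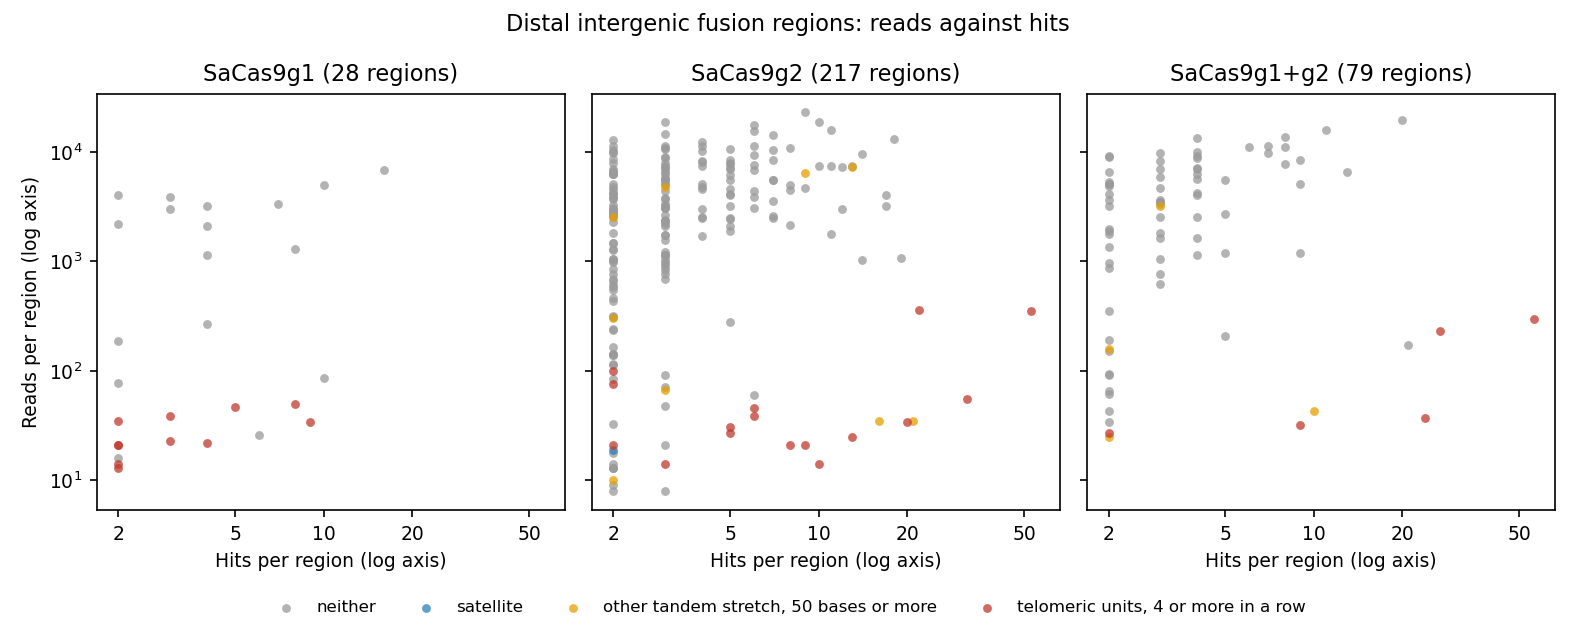
Reads (log axis) against hits (log axis) of each distal intergenic region, in 1 panel per treatment, coloured by the repeat found in the reference sequence of the region. Regions with 4 or more telomeric units in a row lie at the bottom of each panel, with at most 356 reads, while regions without such a run reach 22851 reads.

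Telomeric arrays marked 32 of the 324 intergenic regions, 9.88%. The reference sequence of each region was searched on both strands for at least 4 copies in a row of TTAGGG or CCCTAA, a definition chosen after seeing the data. It held in 11 SaCas9g1, 16 SaCas9g2 and 5 SaCas9g1+g2 regions, but in 8 of the 393 regions elsewhere (2.04%) and in 272 of 5294579 windows of 500 bases across the genome (0.00514%). Only windows without unknown bases were counted, so windows running into unknown bases at chromosome ends were left out of this background. Regions could also be wider than a window. The bound was not close for any intergenic region, since the shortest longest-run among the 32 was 7 units and no other intergenic region had more than 1 unit in a row. The 32 regions came from 26 loci, as several were found in more than 1 treatment.

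Telomeric regions had few reads per hit. Together they had 358 hits, 22.0% of all intergenic hits, from 2174 reads, 0.171% of the intergenic reads. Of these hits, 214 belonged to 3 loci, the end of chromosome 16 with 109, the chr8 array near Ankle1 with 56 and the chr15 array near Cdh12 with 49, and the other telomeric loci held 144. The median telomeric region had 3 hits after SaCas9g1, 7 after SaCas9g2 and 24 after SaCas9g1+g2, beside medians of 4, 3 and 3 without an array. It was thus not the higher in hits after SaCas9g1. Reads per hit ranged from 1.4 to 50 with a median of 6.5, against a median of 797 over the intergenic regions without an array. Of the 53 intergenic regions with fewer than 20 reads per hit, 30 were telomeric, and of the 271 with 20 or more, 2 were. Regions elsewhere reached such low values too, in 37 cases, of which 6 held an array. How the authors placed reads that match several copies of a repeat is not given in the sources used here, so a telomeric hit may not belong to the listed copy.

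Inside chromosomes there were 17 telomeric regions, and the array mostly lay near the middle of the region. The middle of the longest run was a median of 21 bases from the region's centre (5 to 162). The region of chromosome 8 (chr8:71432839-71433421), 26.8 kb from the start of Ankle1, an endonuclease gene, had 12, 4, 5 and 11 hits from 23, 6, 7 and 19 reads in the SaCas9g2 libraries. After SaCas9g1+g2 it had 24 hits from 1, 6, 17 and 13 reads. It was the only intergenic region with reads in every library of both treatments. The region of chromosome 15 (chr15:21656232-21656799), 546 kb from the start of Cdh12, a cadherin gene, had 6, 4, 5 and 7 hits after SaCas9g2 from 14, 29, 204 and 109 reads. After SaCas9g1+g2 it had 0, 3, 4 and 20 hits from 0, 27, 51 and 155 reads, most of them in Hao1-g1-2B. The SaCas9g2 libraries thus varied little in hits there while their reads differed by more than the hits did.

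Other arrays inside chromosomes were listed in 1 treatment. The region of chromosome 13 at chr13:110602801-110603386, 208 kb from Plk2, a kinase gene, had 5, 5, 3 and 7 hits in the SaCas9g2 libraries, from 9, 10, 6 and 9 reads. A further region of chromosome 13 (chr13:13860464-13861198), 76.4 kb from Gng4, a G protein subunit gene, had 5, 0, 3 and 5 hits from 10, 0, 5 and 10 reads. Both were spread over most SaCas9g2 libraries. After SaCas9g1, the array of chromosome 3 (chr3:21698184-21698684) had 9 hits from 34 reads, all in Hao1-g1B, and was the only telomeric region inside a chromosome in that treatment. After SaCas9g1+g2, the array at chr17:93046186-93046745 had 9 hits from 0, 8, 7 and 17 reads.

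Chromosome ends accounted for the other 15 telomeric regions, 10 after SaCas9g1, 4 after SaCas9g2 and 1 after SaCas9g1+g2. Every intergenic region within 10000 bases of a chromosome's last known base was telomeric, and each ran into 139 to 261 unknown bases beyond it. No region elsewhere lay so close to an end. The end of chromosome 16 (chr16:98107259-98107967) had the most hits of all intergenic regions, with 17, 7, 9 and 20 hits from 107, 42, 103 and 99 reads after SaCas9g2. After SaCas9g1+g2 it had 0, 19, 9 and 28 hits from 0, 50, 80 and 165 reads. It thus had reads in every library of both treatments but the small g1-2-A-MEF.

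The ends of chromosomes 2, 5 and 14 were listed after SaCas9g1 and after SaCas9g2. The end of chromosome 14 (chr14:124801298-124802383) had 9 hits from 4, 2, 4 and 11 reads in the SaCas9g2 libraries, and 3 hits from 0 and 23 reads in the SaCas9g1 libraries. The end of chromosome 2 (chr2:182012470-182013363) had 10 hits after SaCas9g2, from 2, 1, 2 and 9 reads, and 2 hits after SaCas9g1, from 0 and 21 reads. The end of chromosome 5 (chr5:151734299-151734842) had 6 hits after SaCas9g2, from 44, 0, 1 and 1 reads, and 3 hits after SaCas9g1, from 0 and 39 reads. All 3 ends thus reached at least 3 SaCas9g2 libraries but only Hao1-g1B after SaCas9g1. Of the SaCas9g1 ends, those of chromosome 12 (7 and 43 reads) and chromosome X (1 and 13 reads) had reads in both libraries, and the other 8 had reads only in Hao1-g1B. Scores for a match to the guide at these ends ran from -2 to 2.

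Counted per library, telomeric regions held 8 and 311 reads after SaCas9g1, 455, 149, 346 and 281 after SaCas9g2 and 1, 93, 155 and 375 after SaCas9g1+g2. Relative to 100000 on-target reads this was 1.31 and 51.7 after SaCas9g1 (mean 26.5 ± 35.6, SD, n = 2). After SaCas9g2 it was 93.6, 39.2, 48.9 and 59.3 (mean 60.3 ± 23.7, SD, n = 4), and after SaCas9g1+g2 it was 0.257, 16.6, 14.9 and 44.9 (mean 19.2 ± 18.7, SD, n = 4). The ranges of all 3 treatments overlapped, and the libraries Hao1-g1B and Hao1-g1-2B lay within the range of SaCas9g2. By number, 2 and 11 telomeric regions had reads in the SaCas9g1 libraries, 16, 11, 13 and 11 in the SaCas9g2 libraries and 1, 5, 4 and 5 in the SaCas9g1+g2 libraries. Since the definition followed the data, no test was run on these ratios.

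Other tandem stretches of at least 50 bases, with units of up to 10 bases, were found in 13 intergenic regions (4.01%) and in 19 regions elsewhere (4.83%), so they were about as common in both. The most recurrent lay on chromosome 4 near Mup7, a gene of the major urinary proteins (chr4:60081531-60082113). Its reference sequence held 18 units of GCAGAG in a row over 108 bases, and 9 copies of the region were found in the genome. It had 1, 6, 5 and 9 hits after SaCas9g2, from 1, 8, 8 and 18 reads. After SaCas9g1+g2 it had 10 hits from 0, 6, 0 and 37 reads. Its low reads per hit were thus like those of the telomeric regions.

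Satellite and ribosomal sequence was rare in the intergenic regions. Those stretches, taken from chr2:98662052-98667558 and chr17:39843078-39848007 and compared with BLAST over at least 100 aligned bases, matched 1 intergenic region and 12 regions elsewhere. Both stretches were themselves called SaCas9g2 regions annotated elsewhere than in intergenic sequence. The 12 therefore include matches of these regions to themselves, and the counts of 1 and 12 are not an even comparison. The intergenic one, at chr9:3010306-3010811, matched the satellite along its whole length and had 54 copies in the genome. It had 2 hits from 19 reads, all in g2-A-MEF. No intergenic region matched the ribosomal stretch. Of the 324 regions, 289 had a single copy in the genome at 90% identity over 80% of their length, 22 had more and 13 had none, all of these telomeric regions that run into unknown bases. The most repeated was chr17:55569688-55570188 after SaCas9g1, with 40650 copies and 6 hits from 26 reads. Regions with 100 or more copies numbered 7. In GENCODE, 3 of the 324 regions overlapped a gene model, the satellite region among them. Repeat-masked sequence made up a median of 28.3% of an intergenic region and 21.7% of a region elsewhere, with a median GC content of 41.1% and 44.7%.

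Among intergenic regions, recurrence across libraries was the exception outside telomeric arrays. In 26 of 28 SaCas9g1, 140 of 217 SaCas9g2 and 47 of 79 SaCas9g1+g2 regions, all reads came from 1 library. By this count regions elsewhere were much the same, with 246 of 393 in 1 library against 213 of 324. Reads in 3 or more libraries were found elsewhere in 14 of 275 regions after SaCas9g2 and 20 of 83 after SaCas9g1+g2. The intergenic counts were 19 of 217 and 7 of 79. Elsewhere only 5 of the 275 and 2 of the 83 held a telomeric array, so most recurrent regions there had none. Of the 26 intergenic regions with reads in 3 or 4 libraries, 17 were telomeric and 1 held another tandem stretch. Put the other way, 17 of 32 telomeric regions and 9 of 292 other intergenic regions reached 3 libraries. A library counted with as little as 1 read, so some regions of both kinds reached 3 libraries on very few reads. After SaCas9g2, the telomeric region near Galnt5 had 25, 1, 1 and 0 reads, and the region without an array near Tlr4 had 2086, 1, 1 and 0. Of the 2 SaCas9g1 libraries, no region could reach 3. In both other treatments, 3 libraries always span at least 2 letters.

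**Figure D2:**
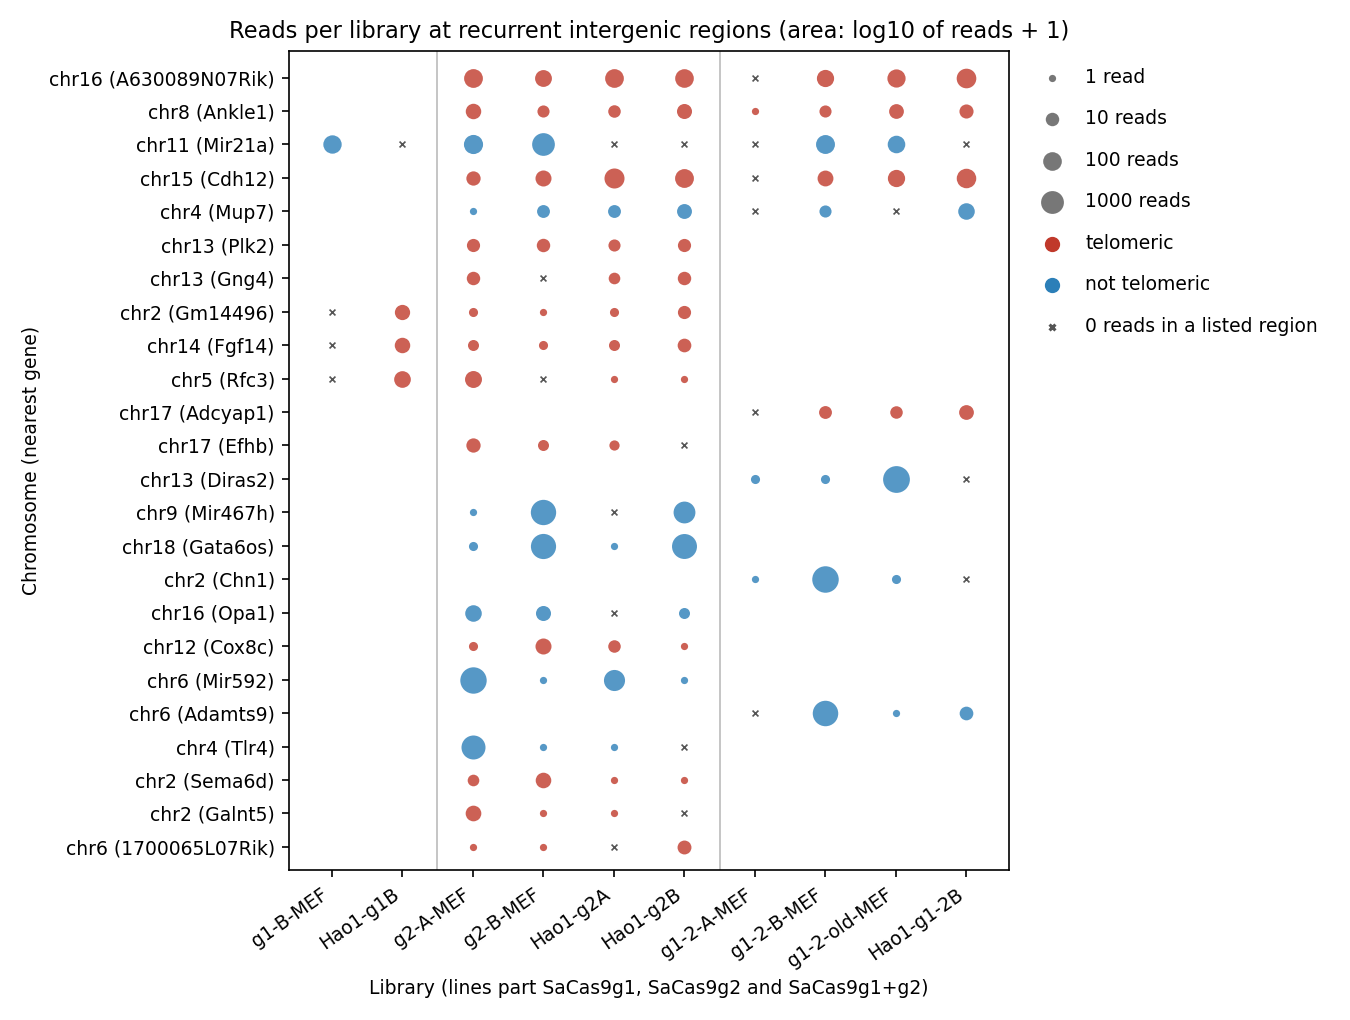
Reads in each of the 10 libraries (x axis; the area of a circle grows with the log10 of reads plus 1) at the 24 intergenic loci found in 3 or more libraries of a treatment or in more than 1 treatment, named by chromosome and nearest gene (y axis) and ordered by their hits. Red circles are the 14 loci with a telomeric array, blue circles the others, crosses mark 0 reads in a listed region and blank cells a region not listed in that treatment's table.

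Chromosome 11 held the only intergenic locus found in all 3 treatments (chr11:86572155-86572658 after SaCas9g1), 11.5 kb from the start of Mir21a, a microRNA gene. It had 10 hits from 87 and 0 reads in the SaCas9g1 libraries. After SaCas9g2 it had 19 hits from 128, 936, 0 and 0 reads, and after SaCas9g1+g2 it had 21 hits from 0, 114, 59 and 0 reads. Its reads came only from libraries whose names end in -MEF, in 5 of the 6, and it had 0 reads in the 4 libraries named Hao1-. What the names stand for is not given in the sources used here. The region was not called in any treatment, and its guide scores were 1, 3 and 3.

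High read counts came mostly from single libraries. After SaCas9g1, chr13:117328693-117329199 had 16 hits and 6854 reads, all in Hao1-g1B, and chr2:88841729-88842243 had 10 hits and 4997 reads, all in g1-B-MEF. After SaCas9g2, chr9:85148178-85148702 had 9 hits, from 22850 reads in Hao1-g2A and 1 read in Hao1-g2B. After SaCas9g1+g2, chr10:100659287-100659806 had 19636 reads from 20 hits, all in Hao1-g1-2B, and chr2:111505009-111505519 had 15876 reads from 11 hits in the same library. None of these 5 regions was found in more than 1 treatment.

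Of the 58 SaCas9g2 regions with reads in exactly 2 libraries, 19 paired g2-A-MEF with g2-B-MEF and 32 paired Hao1-g2A with Hao1-g2B, while 7 paired libraries of different name styles. In the pairs of like names, the library with fewer reads had 1 to 3 reads in 18 of 19 and in 32 of 32 regions. Recurrence between libraries of like names thus rested on very few reads. Of the 25 such SaCas9g1+g2 regions, 15 paired g1-2-B-MEF with g1-2-old-MEF, and the lesser library had 1 to 3 reads in 12 of them. Of the 7 pairs of different name styles, 6 joined libraries of one letter. All 4 called SaCas9g2 regions of this kind were among these 6, with 2 in g2-A-MEF with Hao1-g2A and 2 in g2-B-MEF with Hao1-g2B. The called SaCas9g1+g2 region at chr6:70218081-70218616 likewise had its reads in g1-2-B-MEF and Hao1-g1-2B only. Each of these 5 calls may thus rest on 1 culture. The same holds for the other called regions without an array that had 2461 or more reads. After SaCas9g2, reads were 2, 4451, 1 and 3878 near Gata6os, 10333, 1, 365 and 1 near Mir592, and 1, 4950, 0 and 557 near Mir467h. After SaCas9g1+g2, chr6:93408701-93409246 had 0, 5537, 1 and 11. In each, libraries of any other letter had at most 2 reads. Whether libraries shared reads was not tested.

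The authors' call needs an adjusted p below 0.05 against untreated cells in at least 2 libraries, which is every library of SaCas9g1. After SaCas9g1, 0 of 28 intergenic regions were called, beside 7.58% of all regions in that table. After SaCas9g2, 14 of 217 were called (6.45%), beside 6.05% of all regions. After SaCas9g1+g2, 4 of 79 were called (5.06%), beside 6.55%. The intergenic shares of SaCas9g2 and SaCas9g1+g2 were close to these backgrounds, which include the left-out stretches. Among regions elsewhere outside those stretches, 2 of 35 were called after SaCas9g1 (5.71%), 13 of 275 after SaCas9g2 (4.73%) and 3 of 83 after SaCas9g1+g2 (3.61%). In introns alone the called shares were 0%, 3.78% and 1.89%. Of the 18 called intergenic regions, 7 were telomeric and 11 were not, so that 7 of 32 telomeric and 11 of 292 other regions were called.

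The 7 called regions with an array had 25 to 356 reads. They were the regions of chromosomes 16 and 15 after both SaCas9g2 and SaCas9g1+g2, and the chr8 and both chr13 regions after SaCas9g2. Of the 11 called regions without an array, 2 had under 100 reads and the other 9 had 2461 to 18557. The 2 were the tandem region near Mup7 and chr16:29728098-29728610 near Opa1, a mitochondrial fusion gene, which had 3, 2, 0 and 1 hits after SaCas9g2 from 37, 19, 0 and 4 reads. Among the others, chr14:112156264-112156939 had 5, 0, 5 and 0 hits after SaCas9g2, from 5874 reads in g2-A-MEF and 12683 in Hao1-g2A. It was among the 3 regions with the most reads in that treatment. A called region at chr17:93498419-93498929 had 0, 4, 0 and 7 hits from 0, 6105, 0 and 1361 reads. After SaCas9g1+g2, the called regions without an array were chr6:70218081-70218616, with 0, 5, 0 and 2 hits from 0, 1996, 0 and 7693 reads, and chr6:93408701-93409246, with 0, 3, 1 and 1 hits from 0, 5537, 1 and 11 reads.

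Matches to the guides were weak throughout. The deposited score of the best guide alignment in a region was 22 at the target, while intergenic medians were 1.5 after SaCas9g1, 3 after SaCas9g2 and 4 after SaCas9g1+g2. Medians over regions elsewhere were 3, 3 and 4. Without telomeric regions the SaCas9g1 intergenic median was 3. After SaCas9g1+g2 the score is the higher of those for both guides, so it is not on one footing with the other treatments. A score of 7 or more was given to 1 of 28, 8 of 217 and 5 of 79 intergenic regions and to 1 of 35, 12 of 275 and 0 of 83 regions elsewhere. No intergenic region had an adjusted alignment p of the authors below 0.05, and the lowest were 0.113, 0.166 and 0.057. The called intergenic regions scored at most 5 after SaCas9g2 and 6 after SaCas9g1+g2.

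The aligned sites of 6 intergenic regions, the 2 with the highest scores in each treatment, are printed to show how far they are from the guides (GRCm38). The score of 4 that came next to the highest after SaCas9g1 was shared by chr3:21698184-21698684 and a region of chromosome 1 near Nckap5, which had 3 hits from 3855 reads, and the region with more hits is printed. Capitals mark bases outside the match to the guide and its PAM.
chr2:88841913-88841941, minus strand, aligned to g1: tccTtgTaGaAaAGgAttGcatctggaat
chr3:21698395-21698421, plus strand, aligned to g1: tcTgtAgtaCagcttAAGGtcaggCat
chr2:72675144-72675171, plus strand, aligned to g2: gtcTGctAcAgttttGgAgacacggTgt
chr17:44389619-44389646, minus strand, aligned to g2: TtTaactGtctgtGtAaggaGataAaat
chr2:82015077-82015101, plus strand, aligned to g2: gtcaaTAttgttttaggaTattaTt
chr7:80408635-80408663, plus strand, aligned to g1: tcAgtggtagagAActtGccaCcgtgaaC

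By these alignments and by sequence shared with the target, the authors sorted regions into OMT (off-target activity of the nuclease), HMT (homology to the target) and NBS (natural breaks), and all but 6 intergenic regions were NBS. OMT after SaCas9g2 were chr2:72674862-72675365, with a score of 9, and chr17:44389402-44389904 near Clic5, an ion channel gene, with a score of 8. The site of the first differed from g2 by 5 substitutions and 1 extra base, and it had 5 hits from 7893 reads, all in g2-A-MEF. The second also had 5 substitutions and 1 extra base, and 7 hits, from 5489 reads in g2-A-MEF and 1 in g2-B-MEF. OMT after SaCas9g1+g2 were chr2:82014824-82015324, with 3 substitutions and 1 missing base relative to g2 but 2 of 4 fixed PAM positions matched, and chr7:80408486-80408989 near Furin, a protease gene. The latter had 2 substitutions, 3 extra bases and 1 missing base relative to g1, and 4 hits from 0, 1, 9940 and 0 reads. HMT were found after SaCas9g2 only, chr4:38127449-38127952 with 3 hits from 8 reads, all in Hao1-g2A, and chr7:16901130-16901635 near Ptgir, a prostacyclin receptor gene, with 2 hits from 10471 reads in the same library. None of these 6 regions was called.

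Few intergenic regions were shared between treatments. Merged where they overlapped by at least 1 base, the 324 regions formed 315 loci, of which 307 were found in 1 treatment, 7 in 2 and 1 in 3. SaCas9g1 and SaCas9g2 shared 4 loci, which were 14.3% of the SaCas9g1 and 1.84% of the SaCas9g2 regions. SaCas9g2 and SaCas9g1+g2 shared 5, or 2.30% and 6.33%, and SaCas9g1 and SaCas9g1+g2 shared 1, or 3.57% and 1.27%. Of the 8 loci found in more than 1 treatment, 6 were telomeric, 1 was the tandem region of chromosome 4 and 1 the region near Mir21a. The regions with the highest reads were thus absent from the shared loci.

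Chromosome 2, which carries Hao1, held 66 of the 324 intergenic regions (20.4%), or 37.0 per 100 Mb of known sequence against 10.4 per 100 Mb over the other chromosomes. The density was 2.31 times that of the rest after SaCas9g1, 3.32 times after SaCas9g2 and 4.69 times after SaCas9g1+g2. Regions elsewhere in the annotation showed a like excess of 3.32 times, so it was not particular to intergenic sequence. The share on chromosome 2 ran from 9.09% to 29.4% of the intergenic regions over the 10 libraries. Chromosome 9 came next with 15.7 per 100 Mb, and chromosome Y had 1 region.

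**Figure D3:**
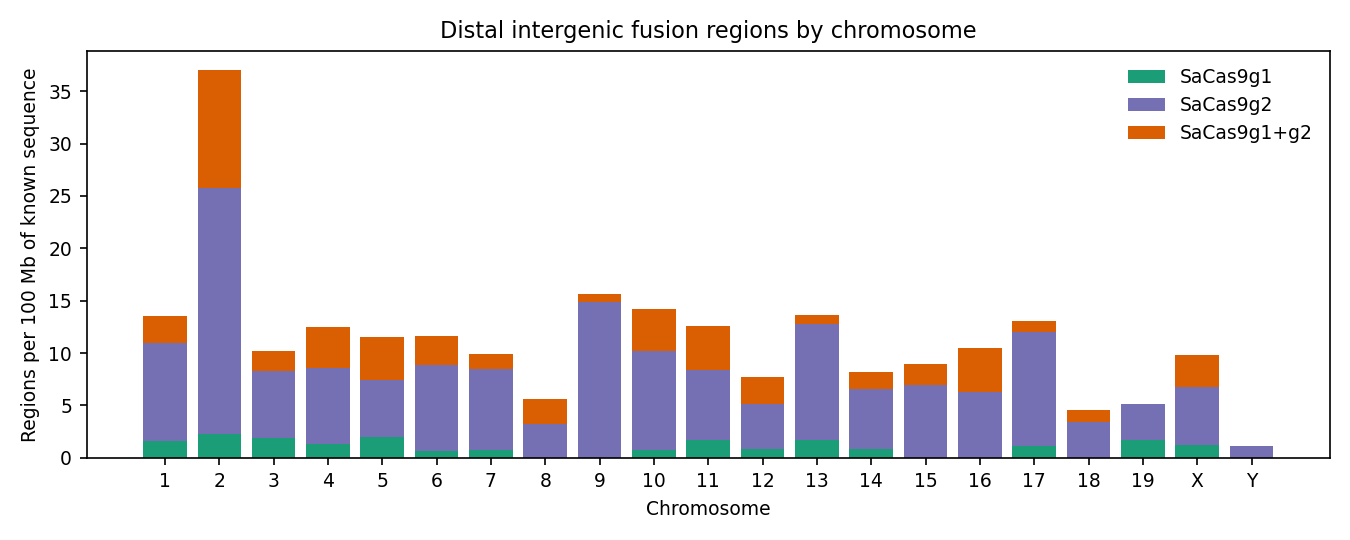
Distal intergenic regions per 100 Mb of known sequence (y axis) on each chromosome (x axis), stacked by treatment. Chromosome 2 reaches 37.0 per 100 Mb and no other chromosome exceeds 15.7.

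Along chromosome 2 the regions were densest near the target, but most lay far from it. Outside the left-out target stretch, 4 regions lay within 1 Mb of the on-target region, 10 within 5 Mb (103 per 100 Mb) and 22 within 20 Mb (55.4 per 100 Mb). Of those within 5 Mb, 1 was found after SaCas9g1, 6 after SaCas9g2 and 3 after SaCas9g1+g2. The other 44 of the 66 lay more than 20 Mb away, at 31.8 per 100 Mb, which was still above the 10.4 of the other chromosomes. Bins of 20 Mb from the start of the chromosome held 0, 3, 7, 7, 7, 7, 14, 10, 8 and 3 regions, the last of them cut short by the chromosome's end. The fullest bin was the one with the target. The chromosome 2 regions had a median of 3 hits, as did those on other chromosomes. Of the 66 regions on chromosome 2, 4 held a telomeric array.

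Intergenic reads relative to on-target reads asked how much intergenic fusion each treatment gave for its on-target signal. Per 1000 on-target reads there were 16.2 and 45.2 intergenic reads after SaCas9g1 (mean 30.7 ± 20.5, SD, n = 2). After SaCas9g2 there were 509, 287, 452 and 455 (mean 426 ± 96.1, SD, n = 4), and after SaCas9g1+g2 there were 69.5, 151, 65.5 and 192 (mean 119 ± 62.2, SD, n = 4). The 3 treatments did not overlap, with SaCas9g2 highest and SaCas9g1 lowest. Every treatment's reads were summed over its own listed regions, each of which needs at least 1 library of that treatment above untreated cells. Of the 315 loci, 307 were listed in 1 treatment only. With 2 libraries, SaCas9g1 had fewer chances of listing than the treatments with 4. The separation, differences and p-values here are thus partly set by the listing and are given as a description. SaCas9g2 exceeded SaCas9g1 by 3.94 on the log2 scale (exact two-sided permutation test over libraries, p = 0.133, Holm-adjusted p = 0.267) and SaCas9g1+g2 by 1.96 (exact permutation test, p = 0.0286, Holm-adjusted p = 0.0857). SaCas9g1+g2 exceeded SaCas9g1 by 1.98 (exact permutation test, p = 0.133, Holm-adjusted p = 0.267). The smallest Holm-adjusted p that so few libraries allow is 0.0857, so no comparison could pass the threshold of 0.05. With libraries of one letter averaged, the differences were 3.94, 2.18 and 1.76, and the exact permutation p-values 0.667, 0.2 and 0.5 are the smallest that 1, 2 and 3 letters allow. With all reads in place of on-target reads as the denominator, the first and second differences were 2.85 and 1.15, and with the number of regions in place of reads the first and the third were 2.89 and 0.98, in the same directions. The annealing temperature cannot be told apart from the guide in the first and second of these differences. The third rests on libraries annealed at the same temperature, but SaCas9g1 had 1 letter, so guides and culture cannot be told apart in it.

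**Figure D4:**
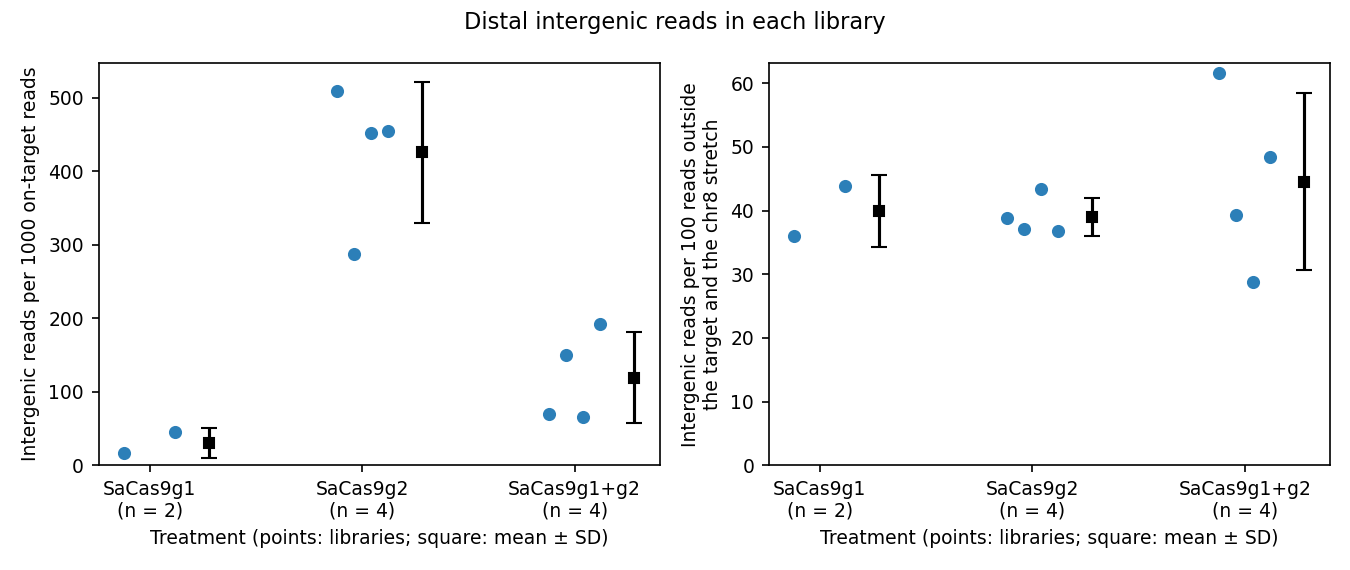
Intergenic reads in each library (points), with the mean and SD of the treatment (square and bar), per 1000 on-target reads (left) and per 100 reads outside the target and the chr8 stretch (right). The 3 treatments separate on the left, with means of 30.7, 426 and 119, and overlap on the right, with means of 39.9, 39.0 and 44.5. Reads of each treatment are summed over its own listed regions.

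As a share of the fusion reads outside the target and the chr8 stretch, the treatments overlapped. Intergenic reads made up 39.9 ± 5.61 per 100 after SaCas9g1 (SD, n = 2), 39.0 ± 3.00 after SaCas9g2 (SD, n = 4) and 44.5 ± 13.9 after SaCas9g1+g2 (SD, n = 4). The differences in mean log2 share were -0.03 for SaCas9g2 against SaCas9g1 (exact permutation test, p = 1), -0.14 for SaCas9g2 against SaCas9g1+g2 (exact permutation test, p = 0.571) and 0.11 for SaCas9g1+g2 against SaCas9g1 (exact permutation test, p = 0.8), each with a Holm-adjusted p of 1. These differences were smaller than the spread between libraries, and each turned sign when 1 library was left out. The first was 0.11 without Hao1-g1B, and without g1-2-A-MEF the second was 0.035 and the third -0.064, and without g1-B-MEF the third was -0.034.

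Introns are the class most like intergenic sequence, and the comparison with them was made within each library. Intergenic reads were above intronic reads in 5 of 10 libraries and below in 5, with a mean log2 ratio of 0.09 (exact two-sided sign-flip permutation test, p = 0.676). By treatment the mean log2 ratio was -0.49 after SaCas9g1 (p = 0.5, the smallest that 2 libraries allow in this exact test), 0.04 after SaCas9g2 (exact test, p = 0.75) and 0.43 after SaCas9g1+g2 (exact test, p = 0.5). With only regions called by the authors, the ratio after SaCas9g2 was 2.82 (exact test, p = 0.125, the smallest that 4 libraries allow), so its size depends on which regions are counted. These were 14 intergenic and 7 intronic regions, called from the same libraries. This ratio thus follows the calls and is no separate evidence of a difference. No test of this ratio passed the threshold. With libraries of one letter averaged, the mean was 0.04 after SaCas9g2 and 0.42 after SaCas9g1+g2. The mean over all libraries was -0.054 without g1-2-A-MEF, and that after SaCas9g2 was -0.062 without Hao1-g2A.

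Called intergenic hits were counted in each treatment over the regions called in its own table, so they follow the number of calls, 14 after SaCas9g2 and 4 after SaCas9g1+g2. For every 100 on-target hits, the libraries had 9.19, 4.64, 3.15 and 6.46 after SaCas9g2 (mean 5.86 ± 2.60, SD, n = 4) and 0, 2.42, 1.10 and 2.51 after SaCas9g1+g2 (mean 1.51 ± 1.19, SD, n = 4). The region near Ankle1 entered the SaCas9g2 values with 32 hits, while its 24 hits after SaCas9g1+g2, where it was not called, did not enter. Likewise the region near Mup7 entered with 21 hits after SaCas9g2 and not with its 10 after SaCas9g1+g2. These values are therefore given as a description and are no evidence of a difference. After SaCas9g1 there were 0 called hits beside 3210 on-target hits, although its intergenic regions, none of them called, had 131 hits. The call asks for both SaCas9g1 libraries but for 2 of 4 in the other treatments, so this 0 is not on one footing with the other values.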

How the data were processed

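CAST-Seq was measured in genomic DNA of MEF CF-1 cells, with 150 nt reads. By the submitters' processing notes, the authors used bedtools 2.27.1 and Bowtie2 2.3.4.2, and positions in the tables match mm10. The authors deposited raw counts of hits and reads, with no scaling applied. Reads per library were taken from the tables of all regions, and a region's reads are their sum. Hits per library were taken from the tables of called sites, and the total hits of a region are the authors' value over all libraries of a treatment. A further 50 columns per library were not used. Among the p-values, as deposited and adjusted by the authors, some set a library against untreated cells and others set a guide alignment against random sequence; both are given as theirs. The deposited score rates the guide alignment. Blank lines (6) were left out.

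From these, ratios per library were computed and the treatments compared by exact two-sided permutation tests over libraries, with Holm adjustment over 3 comparisons at a threshold of 0.05. Within libraries, exact sign-flip permutation tests were used. Permutation tests, run searches and overlaps were tested on simulated data. Sequences came from GRCm38 (RefSeq). Sequences of telomeric arrays are not reported here. Copies of regions were sought with BLAST 2.17.0 at 90% identity and 80% coverage (e-value 1e-20), and satellite or ribosomal matches at 1e-10. Other software was Matplotlib 3.10.9, SciPy 1.17.1, pysam 0.24.0, NumPy 2.4.6 and pandas 2.3.3 under Python 3.11.15.

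The regions, lists and tests were chosen with earlier results of these data known. Named regions were, per treatment, the 6 with the most hits, the 3 with the most reads and the 2 with the highest score, together with called or shared loci, OMT and HMT regions and repeat stretches. Telomeric regions, other tandem regions and highly repeated regions were named after their values were seen. Alternatives were other minimum hits, stricter calls, leaving out the region with the most reads, other ways of joining regions, and each library left out. Averaging libraries of one letter was added after the data were examined. Called hits per on-target hits were also tested, but each treatment counts only its own called regions, so no test of them is reported. Intergenic reads per on-target reads likewise count only a treatment's own listed regions, and their tests are given with that limit. The library names carry no replicate number.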

Additional observations from a re-analysis of the deposited data

Results flagged for a closer look

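In groups of 4 libraries, the highest or lowest library was compared with the others, and 15 of the 44 groups looked at had a library far from the rest by Dixon's criterion. Chance flags about 1 in 20 groups of measurements, and a group with reads in 1 library only is always flagged. After SaCas9g2, reads were highest in Hao1-g2A at chr9:85148178-85148702 (22850 reads), chr6:19900468-19900973 (18636 reads), chr7:16901130-16901635 (10471 reads) and chr4:38127449-38127952 (8 reads). They were highest in g2-A-MEF at chr2:72674862-72675365 (7893 reads), chr17:44389402-44389904 (5489 reads) and the satellite region chr9:3010306-3010811 (19 reads), and in g2-B-MEF at the region near Mir21a (936 reads). At the end of chromosome 16, g2-B-MEF was the lowest, with 42 reads against 99 to 107.

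After SaCas9g1+g2, reads were highest in Hao1-g1-2B at chr10:100659287-100659806 (19636 reads), chr2:111505009-111505519 (15876 reads) and chr2:82014824-82015324 (4133 reads). They were highest in g1-2-old-MEF at chr13:52555312-52555824 (13587 reads) and chr7:80408486-80408989 (9940 reads), and in g1-2-B-MEF at chr2:30555784-30556291 (6499 reads). The end of chromosome 16 was the only telomeric region among these results.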

How the results depend on the processing

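Alternatives to the 13 tested comparisons gave 159 values, of which 149 kept their direction and side of the threshold and 10 turned sign, each of them close to 0 in the report. The share of reads outside the target and the chr8 stretch turned to 0.15 for SaCas9g2 against SaCas9g1 without the region with the most reads. With at least 3 hits per region, it turned to 0.0019 for SaCas9g2 against SaCas9g1+g2 and to -0.21 for SaCas9g1+g2 against SaCas9g1, and the intergenic to intronic ratio after SaCas9g2 turned to -0.025. With each library left out, the share ranged from -0.17 to 0.11, from -0.33 to 0.035 and from -0.064 to 0.30 for SaCas9g2 against SaCas9g1, SaCas9g2 against SaCas9g1+g2 and SaCas9g1+g2 against SaCas9g1. The intronic comparison ranged from -0.062 to 0.13 after SaCas9g2, from 0.12 to 0.75 after SaCas9g1+g2 and from -0.054 to 0.18 over all libraries. The cause was not tested. With each library left out, the differences per 1000 on-target reads ranged from 3.20 to 4.68 for SaCas9g2 against SaCas9g1. They ranged from 1.72 to 2.24 for SaCas9g2 against SaCas9g1+g2 and from 1.24 to 2.72 for SaCas9g1+g2 against SaCas9g1. Other alternatives went as low as 2.85, 1.15 and 0.98, in the same order. Called hits, not used as a comparison, moved from 2.39 for SaCas9g2 against SaCas9g1+g2 to between 1.51 without g1-2-A-MEF and 6.30 with reads in place of hits.

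Of 31 alternative counts, 26 stayed within 1.5 times. With at least 3 hits there were 18, 139 and 51 intergenic regions, and called in every library were 2 after SaCas9g2 and 0 after SaCas9g1+g2. Chosen after seeing the data were averaging libraries of one letter, leaving out telomeric regions and other minimum runs of telomeric units. None turned a sign, and with at least 8 units 11, 13 and 4 regions were telomeric. Using called regions only could not be run for 9 comparisons, because a library or treatment had 0 such reads, and averaging by letter gave no test within SaCas9g1, which has 1 letter. No paired analysis was possible because the library names carry no replicate number of the labels, and what a letter means across treatments is not given in the sources used here.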
